A study of Mus musculus with 4 samples.

Results

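The solute carrier family 25 (Slc25) encodes the carriers that move metabolites, nucleotides, cofactors and iron across the inner mitochondrial membrane, and its transcripts were followed here in sorted kidney cells of chimeric mouse embryos. A gene belonged to the set if the array's annotation gave it a symbol of the form Slc25a followed by a number and at least 1 probe set named that gene alone. This found 44 of the 18194 genes measured, on 93 probe sets, and of these the brightest per gene, by mean log2 intensity over the 4 arrays, was used. The rule did not use the measured difference between the groups. The 5 relatives that go by other symbols are outside the rule and are described separately.

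The study set embryonic kidney cells without Tfrc, the gene of the transferrin receptor, against wildtype cells. Embryonic stem cells that were Tfrc-/- and GFP-positive, 3 to 5 of them per embryo, were injected into wildtype blastocysts, and kidneys of the resulting chimeras were dissociated at embryonic day 15.5. One group is the GFP-positive, Tfrc-/- cells of these kidneys and the other is their GFP-negative, wildtype cells, with 2 arrays each. Both groups passed through the same digestion with collagenase and trypsin and the same sort. No group holds GFP-positive cells with Tfrc intact, so the effect of Tfrc and any other difference between the injected line and the host cannot be told apart. Neither the strains, the number of stem cell clones nor the animals behind each array are given in the sources used here, so p-values measure only the spread between these 4 samples.

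Mitochondrial carriers share 1 protein fold and exchange or import small molecules that the inner membrane otherwise holds back. Iron that enters a cell through the transferrin receptor has to pass this membrane before it can be built into haem or iron-sulphur clusters. Mitoferrin 1 (Slc25a37) does this in red cell precursors and mitoferrin 2 (Slc25a28) in most other cells. Kidney tubules are rich in mitochondria, and carriers for ATP, phosphate and fuels are expressed in every cell that respires.

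On every array Tfrc itself had signal: its brightest probe set read 1759 and 2348 for wildtype cells and 2509 and 3175 for Tfrc-/- cells. This goes against the label if the probes lie inside the deleted part, which is not given, so the group is called "labelled Tfrc-null" and every direction rests on that label. All 8 cap mesenchyme and 7 podocyte and proximal tubule genes measured lay above the control level on all 4 arrays. Sums of marker genes of several cell types differed between the groups. Summed intensity of 14 red cell genes was 1318 and 3172 for wildtype cells and 285 and 330.5 for labelled Tfrc-null cells. For 11 ureteric bud genes the sums were 7399 and 8108 against 2874 and 3591, and for 10 endothelial genes 6078 and 5332 against 3692 and 3052. For 9 leukocyte and neutrophil genes they were 7063 and 10140 against 2911 and 3119, but 5 of the 9 had a higher mean and their median log2 difference was 0.10. That median is the value of Itgam. The neutrophil genes S100a8 and S100a9 carried the gap in the sums: without them the sums over 7 genes were 2782 and 2919 against 2818 and 2604. Of these 7, Ptprc (209 and 194 against 113 and 131) and Lyz2 (1030 and 739 against 606 and 461) were lower without overlap. Csf1r, the brightest of them, was higher without overlap, at 1404 and 1862 against 1879 and 1879. Stromal sums, over 11 genes, were higher, at 13140 and 9444 against 17530 and 15820. Sums of cap mesenchyme genes (8) and of podocyte and proximal tubule genes (7) were 1886 and 2001 against 1668 and 1510, and 4203 and 4508 against 4039 and 3674. A level no higher than the controls on any array was found for 2 red cell genes, Epb42 and Rhag, and 2 leukocyte genes, Itgam and Elane. Each array is a mixture of cells, so fewer cells of a type and less RNA per cell cannot be told apart. The part of these mixtures in the carrier results was not tested.

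Across the family, counts and medians lay close to those of all genes. With limma, 0 of 44 members passed an adjusted p of 0.05 over all genes, and 0% of all 18194 genes did. The unadjusted p was under 0.05 for 6 members (13.6%), against 8.02% of all genes. The median log2 difference, labelled Tfrc-null minus wildtype, was 0.01 over the members and 0.04 over all genes. A higher mean was found for 23 members (52.3%), against 57.5% of all genes, and a lower one for 21, against 42.4%. Both labelled Tfrc-null arrays lay above both wildtype arrays for 8 members (18.2%), against 20.6% of all genes. They lay below for another 8 (18.2%), against 14.3% of all genes, which makes 16 without overlap, against 34.9% of all genes.

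Most members differed by little, and 1 lay far from the rest. The difference of group means was under 1.5-fold for 38 of 44 members and under 2-fold for 43. Only Slc25a37 combined a difference of at least 2-fold with groups that did not overlap, which is 2.27% of members, against 1.51% of all genes lower in that way. No member was at least 2-fold higher without overlap, against 1.15% of all genes. For 11 members (25%) the difference exceeded the distance between the 2 arrays of either group, against 24.4% of all genes. The probe sets of 38 members lay above the control level on all 4 arrays, where an array's control level is the brightest of 27 probe sets for Bacillus subtilis genes, 7.18 to 9.08. Slc25a31 lay above it on both labelled Tfrc-null arrays only, and Slc25a2, Slc25a18, Slc25a35, Slc25a48 and Slc25a54 did not lie above it on both arrays of any group. Of the 39 members above it on both arrays of a group, 5 had an unadjusted limma p under 0.05, against 1441 of 14546 such genes. Among these 39, 7 lay higher and 6 lower without overlap, against 3219 and 2205 of the 14546 genes. Probe sets differ in how strongly they bind, so intensities are compared between arrays and not between genes.

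**Figure D1:**
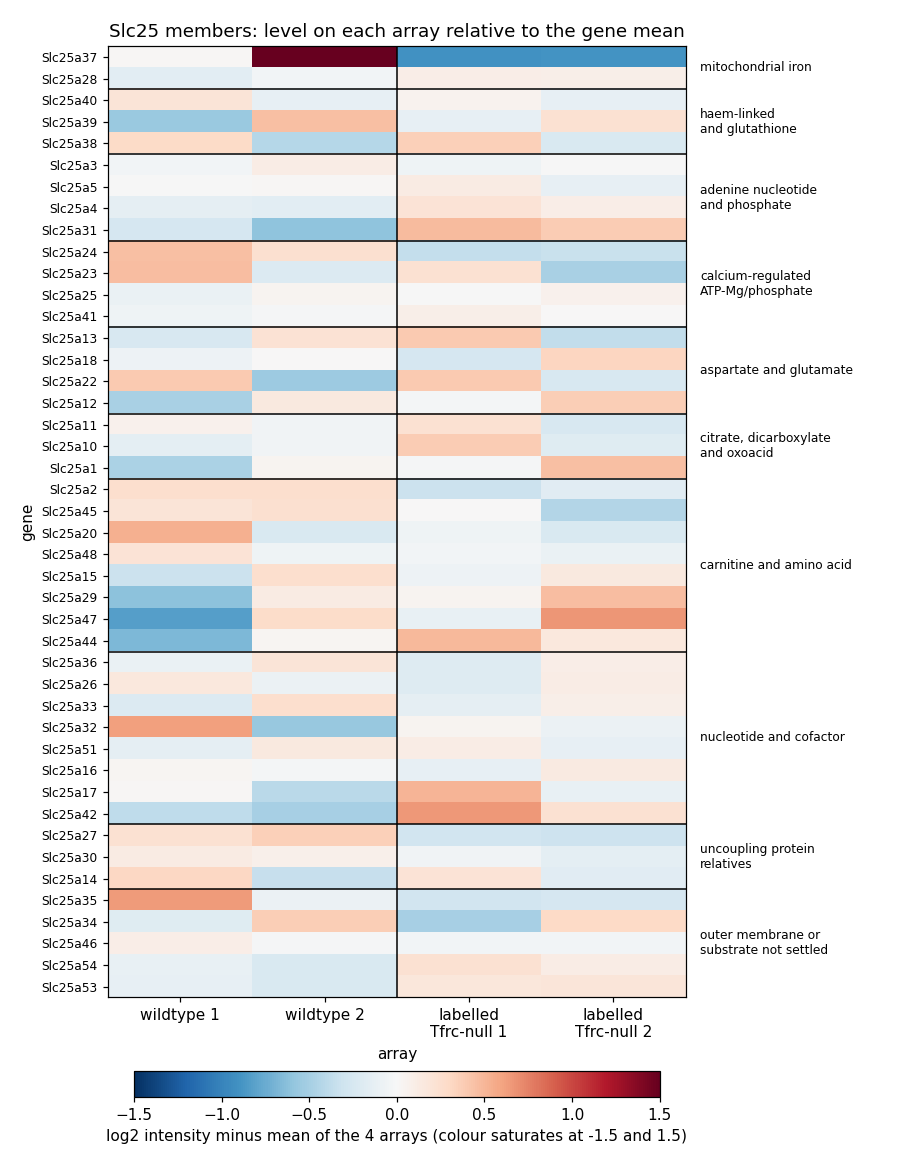
Colour map of the 44 members (rows, grouped by role) on the 4 arrays (columns); colour is log2 intensity minus the gene's mean over the 4 arrays, red above and blue below, saturating at -1.5 and 1.5. The Slc25a37 row has the strongest colours, red on wildtype array 2 and blue on both labelled Tfrc-null arrays, while most rows show only pale colours.

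**Figure D2:**
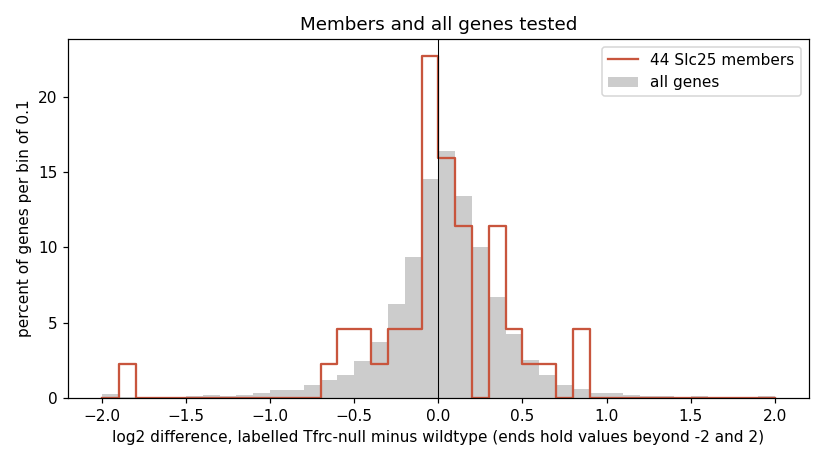
Histogram of log2 differences, labelled Tfrc-null minus wildtype, in bins of 0.1, as percent of the 44 members (line) and of all 18194 genes (grey bars). Both peak near 0, with medians of 0.01 and 0.04, and the member at the far left is Slc25a37.

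The 2 mitoferrins lay in opposite directions. Slc25a37, which carries iron into mitochondria for haem synthesis in red cell precursors, read 179 and 617 for wildtype cells and 94.3 and 95.2 for labelled Tfrc-null cells. Both labelled Tfrc-null arrays were lower, and the wildtype arrays were far from each other. The group means were 398 ± 309 and 94.8 ± 0.664 (SD, n = 2 each), a 3.51-fold lower level on the log2 scale (difference -1.81, SE 0.58, limma adjusted p = 0.505). Wildtype array 2 decides the size: the difference was -0.92 without it and -2.70 without wildtype array 1. A dim probe set that names both Slc25a37 and Gm16867, and so lies outside the rule, read 11.9 and 12.3 against 6.93 and 9.28 (difference -0.59). On that probe set the wildtype arrays lay close together, but all its values were near the control level. Labelled Tfrc-null array 1 lay below its control level of 7.40. Slc25a28, the mitoferrin of other tissues, read 134 and 146 for wildtype cells and 159.9 and 159 for labelled Tfrc-null cells. Both labelled Tfrc-null arrays were slightly higher, by 0.19 on the log2 scale (SE 0.18, limma adjusted p = 0.918), a difference of the size of its error.

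Several red cell genes, but not all, had the same order of groups and wildtype arrays as Slc25a37. The share of all genes with that order was not counted. Slc4a1, the anion exchanger of the red cell membrane, read 187 and 513 for wildtype cells and 26.0 and 14.5 for labelled Tfrc-null cells. The embryonic globin Hba-x read 59.8 and 249 against 10.2 and 9.04, and Hbb-y 713 and 1989 against 5.89 and 46.5, though globin probes can bind more than 1 globin. Of 14 measured genes of red cells, 13 had lower means (42.4% of all genes did), and 11 lay lower without overlap between groups (14.3% of all genes). Their median log2 difference was -0.64, and limma called 0 (7 at an unadjusted p under 0.05, against 8.02% of all genes). The 11 include Epb42 and Rhag, and the 7 include Epb42, although neither gene exceeded the control level on any array. The list includes Klf1, a transcription factor of red cell precursors, at 12.3 and 20.8 against 11.2 and 10.8. Ank1 (30.8 and 28.3 against 29.8 and 28.0) and Epor (31.6 and 25.4 against 29.0 and 29.0) had overlapping groups. Both were highest on wildtype array 1. Whether the Slc25a37 difference goes with that of the red cell genes was not tested.

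Enzymes and carriers of haem synthesis, which use the iron that mitoferrin brings in, were split. Alas2, the first enzyme of the pathway in red cells, read 386 and 1349 for wildtype cells and 22.9 and 12.8 for labelled Tfrc-null cells (a difference of -5.40, SE 0.64, limma adjusted p = 0.122). Abcb10, a transporter of the inner membrane that stabilises mitoferrin 1, read 269 and 233 against 90.5 and 41.1 (log2 difference -2.04, SE 0.40, adjusted p = 0.261). Fech, which inserts iron into the haem ring, read 1044 and 2205 against 691 and 676, so it too was highest on wildtype array 2. Alad, which acts in the cytosol on the product of Alas enzymes, ran the other way, at 302 and 438 against 819.9 and 827 (log2 difference 1.18, SE 0.24, adjusted p = 0.287). Of 11 measured genes of this list, 7 had a higher mean and 4 a lower one, 2 lay higher and 3 lower without overlap, against 20.6% and 14.3% of all genes. Limma called 0, with 4 at an unadjusted p under 0.05, against 8.02% of all genes. The median was 0.24 and the mean -0.56, so they differ in sign.

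**Figure D3:**
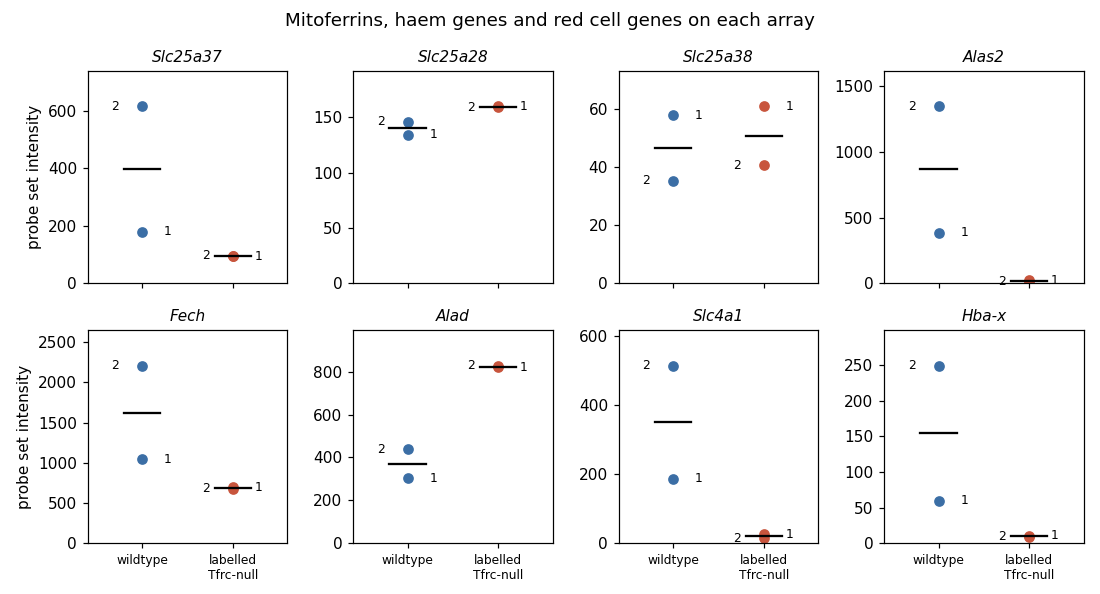
Probe set intensity (linear axis from 0, a scale of its own in each panel) of the mitoferrins Slc25a37 and Slc25a28, the glycine carrier Slc25a38, the haem enzymes Alas2, Fech and Alad and the red cell genes Slc4a1 and Hba-x; points are arrays with their replicate number, and bars are means of 2. Slc25a37, Alas2, Fech, Slc4a1 and Hba-x are highest on wildtype array 2 and low on both labelled Tfrc-null arrays, while Slc25a28 and Alad are higher there.

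Other carriers tied to haem or to glutathione did not differ beyond their spread. Slc25a38, which imports glycine for the first step of haem synthesis and is needed for red cell formation, read 57.7 and 35.3 for wildtype cells and 60.8 and 40.5 for labelled Tfrc-null cells. In both groups the array numbered 1 was the higher one, and the difference was 0.14 (SE 0.33, limma adjusted p = 0.993). Its value on wildtype array 2, where Slc25a37 was highest, was the lowest of the 4. Slc25a39, a carrier of glutathione into mitochondria, read 1629 and 3273 against 2202 and 2796, a difference of 0.10 (SE 0.37). In both groups the array numbered 2 was higher. Its related carrier Slc25a40 read 253 and 203 against 228 and 203, a difference of -0.07 (SE 0.21).

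ATP and phosphate carriers supply the mitochondrial ATP synthase and export its product. On the probe sets used they differed little, apart from 2 adenine nucleotide translocators. Slc25a4, the translocator of heart and muscle that exchanges ADP for ATP, read 3434 and 3382 for wildtype cells and 4349 and 4057 for labelled Tfrc-null cells. Both labelled Tfrc-null arrays were higher, by 0.30 (SE 0.18, limma adjusted p = 0.801). Its other 3 probe sets gave -0.06 to 0.31. Slc25a5, the translocator of dividing cells, had a difference of -0.01 (SE 0.19) and 8 probe sets between -0.32 and 0.04. The 2 genes are close in sequence, so probes of one may bind the other. Slc25a31, the translocator of male germ cells, read 6.95 and 5.48 against 11.5 and 10.8. Both wildtype arrays lay at or below the control level, which leaves a difference of at least 1.38-fold (limma adjusted p = 0.352). Slc25a3, which imports phosphate, differed by -0.07 (SE 0.18). A second, dimmer probe set of Slc25a3 read 129 and 130 against 93.2 and 106, lower without overlap (difference -0.38).

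Among the ATP-Mg/phosphate carriers, which adjust the pool of adenine nucleotides in mitochondria, Slc25a24 stood out. It read 1245 and 1068 for wildtype cells and 709 and 718 for labelled Tfrc-null cells. The groups did not overlap, with means of 1156.5 ± 125 and 714 ± 6.41 (SD, n = 2), a 1.62-fold lower level (difference -0.69, SE 0.19, limma adjusted p = 0.42). Leaving out any 1 array gave -0.80 to -0.58. Its second probe set was near the control level, at 7.84 to 11.8, and differed by 0.25, so with the mean of both the difference was -0.22. Slc25a23 differed by -0.26 (SE 0.35), with the array numbered 1 higher in both groups. Slc25a41 read 10.59 and 10.96 against 11.76 and 11.09, higher without overlap but by only 0.08 (SE 0.18). Slc25a25 differed by 0.05 (SE 0.18).

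Among carriers of aspartate, glutamate and acids of the citric acid cycle, the groups of all 7 members overlapped. Slc25a13 and Slc25a12 exchange aspartate for glutamate in the malate-aspartate shuttle. Slc25a13 read 172 and 235 for wildtype cells and 266 and 157 for labelled Tfrc-null cells, so the labelled Tfrc-null arrays held both the highest and the lowest value (difference 0.02, SE 0.32). Slc25a12 differed by 0.34 (SE 0.29) on the probe set used and by -0.37 on a second one. The glutamate carrier Slc25a22 differed by 0.15 (SE 0.39), and its relative Slc25a18 was at or near the control level and gets no fold. Slc25a1, which exports citrate for fat synthesis, read 53.5 and 77.0 against 73.9 and 102 (difference 0.43, SE 0.28), and the groups overlapped. The dicarboxylate carrier Slc25a10 differed by 0.19 (SE 0.25). Slc25a11, which exchanges malate for oxoglutarate, read 196 and 179.5 against 219.5 and 158, a difference of -0.01 (SE 0.23). The 4 enzymes of the shuttle, Got1, Got2, Mdh1 and Mdh2, differed by -0.14 to 0.08.

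The carriers of carnitine and other amino acids spread to both sides. Slc25a20, which brings acylcarnitines in for fatty acid oxidation, read 3101 and 1829.9 for wildtype cells and 2049 and 1825 for labelled Tfrc-null cells. Wildtype array 1 was above the other 3 arrays, which lay close together (difference -0.30, SE 0.30, limma adjusted p = 0.925). Slc25a44, a carrier of branched-chain amino acids, read 89.8 and 146.5 against 200.5 and 159.8. Both labelled Tfrc-null arrays were higher (difference 0.64, SE 0.30, adjusted p = 0.698), with 0.29 without wildtype array 1 and 0.99 without wildtype array 2. A second probe set of it differed by 0.27. Slc25a29, which carries basic amino acids, had 5 probe sets that all pointed the same way, by 0.22 to 0.62, while the groups of the one used overlapped (difference 0.50, SE 0.32). Slc25a45 read 84.4 and 87.1 against 73.9 and 54.6, lower without overlap (difference -0.43, SE 0.22, adjusted p = 0.747). It was -0.21 without labelled Tfrc-null array 2 and -0.65 without labelled Tfrc-null array 1. Slc25a47 differed by 0.55 (SE 0.45) with overlap and the ornithine carrier Slc25a15 by 0.06 (SE 0.26). Slc25a2 and Slc25a48 were at or near the control level and get no fold.

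Of the partner enzymes of the carnitine carrier, Cpt1a, the outer-membrane enzyme that commits fatty acids to oxidation, read 369 and 423 for wildtype cells and 198.5 and 295 for labelled Tfrc-null cells. Both labelled Tfrc-null arrays were lower (difference -0.71, SE 0.26, limma adjusted p = 0.572). Cpt2, Crat, Acadm and Acadl had differences of 0.12 to 0.32, Acadvl of 0.02 and Cpt1c of -0.10. Of the 7 genes measured, limma called 0 (1, Cpt1a, at an unadjusted p under 0.05), 2 lay higher and 1 lower without overlap (34.9% of all genes did either), and the median was 0.12.

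Among carriers of nucleotides and cofactors, 7 of 8 members had overlapping groups. Slc25a42, which imports coenzyme A, read 21.4 and 19.6 for wildtype cells and 43.6 and 32.4 for labelled Tfrc-null cells. The groups did not overlap, with means of 20.5 ± 1.24 and 38.0 ± 7.91 (SD, n = 2), a 1.83-fold higher level (difference 0.88, SE 0.22, limma adjusted p = 0.381). Its second probe set, near the control level, differed by 0.32. Slc25a36, a pyrimidine nucleotide carrier, read 2079 and 2556 against 1951 and 2387, with the array numbered 2 higher in both groups (difference -0.10, SE 0.22). Slc25a33, its close relative, Slc25a51, which imports NAD, Slc25a26, which imports the methyl donor S-adenosylmethionine, and Slc25a32, a folate carrier, differed by -0.08 to -0.01. Slc25a16 differed by 0.01, and Slc25a17, a cofactor carrier of peroxisomes, by 0.39 (SE 0.29) with overlap.

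Relatives of the uncoupling proteins, which can let protons leak back into the matrix, numbered 3, of which 2 were lower without overlap, as were 14.3% of all genes. Slc25a27, expressed mainly in neural tissue, read 71.2 and 77.7 for wildtype cells and 49.7 and 48.9 for labelled Tfrc-null cells. The groups did not overlap (1.51-fold lower, difference -0.59, SE 0.18, limma adjusted p = 0.481). Its 3 further probe sets were dim and differed by -0.23 to -0.11. Slc25a30, which was first described in kidney mitochondria, read 26.7 and 26.0 against 23.6 and 22.3, also without overlap (difference -0.20, SE 0.18). Slc25a14 read 1037 and 654 against 962 and 742, with the array numbered 1 higher in both groups (difference 0.04, SE 0.30).

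Of members of the outer membrane or without a settled substrate, Slc25a46, an outer-membrane protein that shapes mitochondria, read 1596 and 1474 for wildtype cells and 1445 and 1444 for labelled Tfrc-null cells. The groups did not overlap, but the difference was only -0.09 (SE 0.18), and a second probe set gave 0.12. Slc25a53 read 92.8 and 86.7 against 113.5 and 114.9, higher without overlap (difference 0.35, SE 0.18, limma adjusted p = 0.747). Its second probe set, also above the control level, differed by -0.63 the other way. Slc25a34 differed by -0.20 (SE 0.35) with overlap. Slc25a35 and Slc25a54 were at or near the control level.

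**Figure D4:**
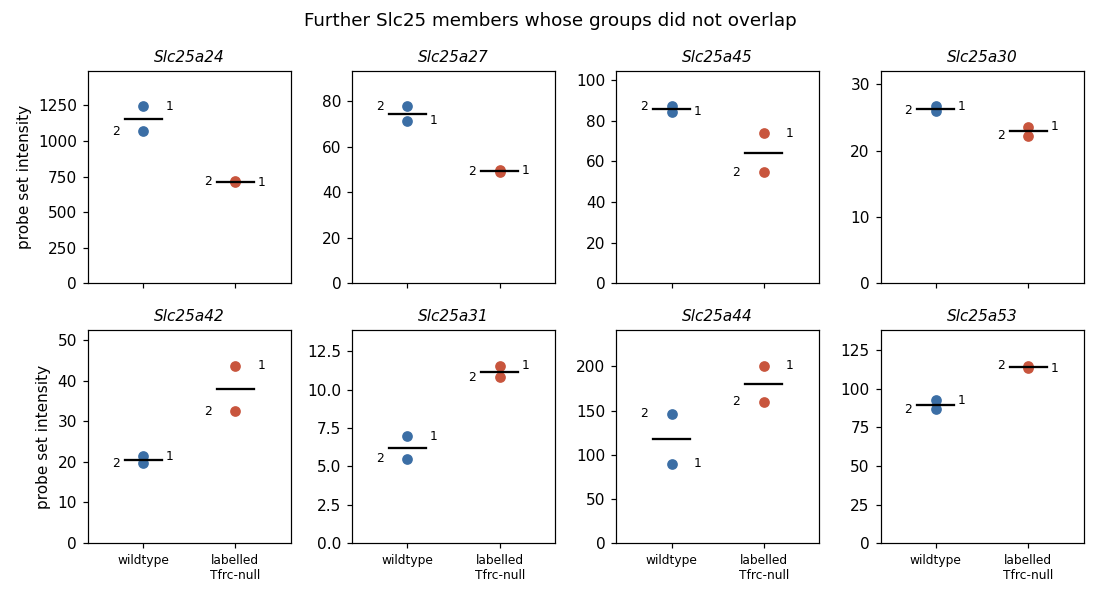
Probe set intensity (linear axis from 0, a scale of its own in each panel) of members whose groups did not overlap, with points for arrays, their replicate number, and bars for means of 2. Slc25a24, Slc25a27, Slc25a45 and Slc25a30 lie lower for labelled Tfrc-null cells and Slc25a42, Slc25a31, Slc25a44 and Slc25a53 higher, none past the limma threshold.

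**Figure D5:**
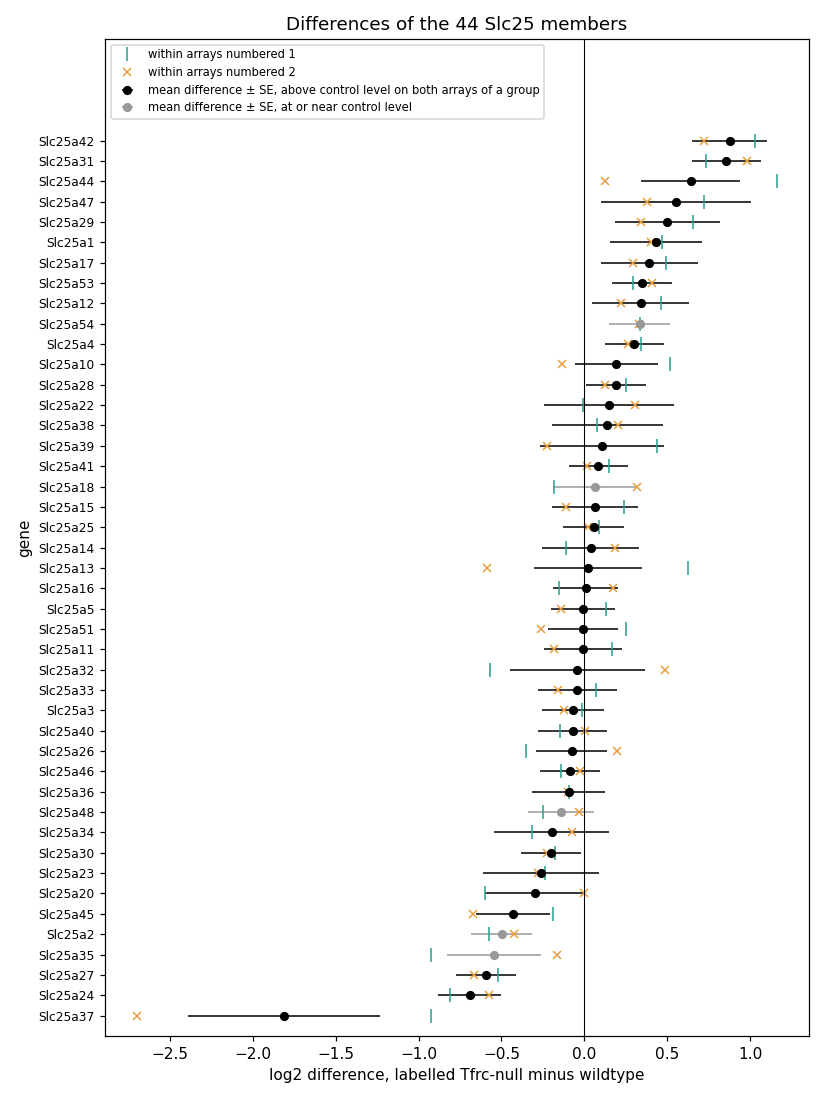
Log2 difference, labelled Tfrc-null minus wildtype, of each member (filled point with SE; grey for members at or near the control level), with the difference within the arrays numbered 1 (bar) and within those numbered 2 (cross). Slc25a37 lies at -1.81 and all other members between -0.69 and 0.88, and among others, Slc25a13, Slc25a32 and Slc25a39 have values within number 1 and number 2 on opposite sides of 0.

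Probe sets of 1 gene often disagreed in sign. Disagreement was not limited to small differences: Slc25a12 had 0.34 and -0.37, and Slc25a53 had 0.35 and -0.63. Of 32 further probe sets that lay above the control level on all 4 arrays, in 17 member genes, 20 had the sign of the probe set used. The probe set used carries the suffix x_at, which marks probes that can bind other transcripts, for 5 members, Slc25a5, Slc25a25, Slc25a29, Slc25a32 and Slc25a39. For 3 others, Slc25a26, Slc25a30 and Slc25a47, it carries the suffix s_at, which marks probes shared by several transcripts.

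Family relatives with other symbols were alike in size. Mtch1, an outer-membrane relative of the carriers, read 712 and 761 for wildtype cells and 965 and 893 for labelled Tfrc-null cells (difference 0.33, SE 0.18, limma adjusted p = 0.766), and Mtch2 differed by -0.08. The uncoupling protein Ucp1 was at or near the control level, Ucp3 exceeded it only in labelled Tfrc-null cells (7.02 and 7.69 against 8.35 and 9.07), and Ucp2 had no probe set of its own. The import machinery that inserts carriers into the inner membrane had 9 of 13 genes with a higher mean, against 57.5% of all genes. The other 4 had a lower one, against 42.4%. Of the 13, 7 lay higher without overlap (20.6% of all genes) and 1, Tomm20, lower (14.3%). The median was 0.09, and limma called 0 genes, also at an unadjusted p under 0.05. The members with the smallest p were the small chaperones Timm13 and Timm8b and the outer-membrane channel Tomm40. Timm13 read 442 and 539 against 784 and 619, Tomm40 85.8 and 68.0 against 121 and 96.1, and Timm8b differed by 0.32. Tomm20 read 2106 and 2052 against 1762 and 1849, and Tomm22 differed by -0.25 (SE 0.22) with overlap. The pyruvate carrier subunit Mpc1 differed by 0.37 (SE 0.20) and the outer-membrane porins Vdac1, Vdac2 and Vdac3 by -0.09 to 0.06. Of 9 regulators of mitochondrial gene expression, limma called 0, also at an unadjusted p under 0.05, and the median was 0.05. The coactivators Ppargc1a and Ppargc1b had differences of -0.52 (SE 0.31) and -0.49 (SE 0.20), the first with overlap, and the mitochondrial methyltransferase gene Tfb1m had 0.29.

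Promoter sequence is shown for mitoferrin 2 and for the members with the largest difference in either direction that the RefSeq promoter table (GRCm38.p6) holds, so that their sequence can be set beside their values. The bases directly before the start of each gene are written 5′ to 3′ on the strand of the gene, with capitals for a CCAAT box (CCAAT) or a GC box (GGGCGG) on either strand.
Slc25a28, chr19:43675007-43675131, minus strand: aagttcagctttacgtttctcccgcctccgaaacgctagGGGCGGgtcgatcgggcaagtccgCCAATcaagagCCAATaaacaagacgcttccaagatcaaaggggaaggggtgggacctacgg
Slc25a24, chr3:109122899-109123148, plus strand: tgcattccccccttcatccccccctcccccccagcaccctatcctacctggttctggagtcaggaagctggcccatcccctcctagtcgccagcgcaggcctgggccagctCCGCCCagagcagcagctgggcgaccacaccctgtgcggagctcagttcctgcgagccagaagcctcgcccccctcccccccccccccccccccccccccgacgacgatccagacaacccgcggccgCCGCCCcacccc
Slc25a42, chr8:70212282-70212531, minus strand: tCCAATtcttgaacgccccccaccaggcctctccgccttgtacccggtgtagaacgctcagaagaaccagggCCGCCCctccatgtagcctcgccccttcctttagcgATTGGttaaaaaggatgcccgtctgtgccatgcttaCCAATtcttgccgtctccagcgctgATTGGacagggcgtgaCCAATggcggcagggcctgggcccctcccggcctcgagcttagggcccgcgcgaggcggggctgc
The run before Slc25a42 holds 5 CCAAT boxes and 1 GC box, that before Slc25a28 holds 2 and 1 in 125 bases, and that before Slc25a24 holds 0 and 2. In windows of 250 bases, the table's promoters of 34 members (43 in all) held a GC box in 74.4% of cases, against 32.7% of all 32851 promoters and 42.6% of those of protein-coding genes. A CCAAT box was in 46.5%, against 33.8% and 35.4%. The GATA factor words AGATAA and TGATAA were in 2 and 1 of the 43 member promoters (4.65% and 2.33%). The shares were 9.99% and 7.94% of all promoters and 8.81% and 6.94% of those of protein-coding genes. Slc25a2, Slc25a26, Slc25a27, Slc25a32, Slc25a35, Slc25a37, Slc25a41, Slc25a44, Slc25a46 and Slc25a51 have no entry in the table. These are matches of letters in a fixed window and not measured binding.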

How the data were processed

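Probe set intensities on 4 Affymetrix whole-genome mouse arrays, 2 per group, were made by the authors with RMA, per the submitters' processing notes. Per the labels' protocols, 50 ng of total RNA was amplified isothermally and biotin-labelled. RMA in general makes array distributions alike, which would remove any shift common to most genes. Median intensities of the deposited values still differed between arrays, from 17.5 to 19.3. Its version, its settings and the step back to a linear scale are not given in the sources used here. The deposited values of all 45101 probe sets were log2-transformed and not normalized again. The 34958 probe sets with 1 symbol represent 18194 genes, 18033 of them and all 44 members found in RefSeq by Entrez identifier. Probe sets with several symbols (932) or none (9211) were left out.

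The group difference was fitted per gene in limma 3.58.1 under R 4.3.3 (lmFit, eBayes), without filter or block. P-values were adjusted by Benjamini-Hochberg across every gene, and the threshold was 0.05. The script was tested on simulated data. Values are mean intensity ± SD, and 2 arrays a group limit the precision. The smallest two-sided p of an exact permutation test of 2 against 2 is 0.333. If neither array of a group exceeded its control level, the fold is a bound, taken against that level or the array's own value, whichever is higher. The members and lists were chosen with earlier results of these data known. Array values are given for the iron, haem and glutathione carriers, the member with the highest mean log2 intensity of each role, up to 8 members per direction with the largest difference without overlap, and up to 3 genes per other list with the smallest p. Alternatives (block, left-out arrays, filter, pseudocount, normalization, probe set rule, variance) are given in the closing section. Other genes named were chosen after their values were seen.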

Additional observations from a re-analysis of the deposited data

How the results depend on the processing

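Alternatives were the replicate number as a block, leaving out each array, a filter on low values, a pseudocount of 16, median centring, quantile normalization, the mean of all probe sets of a gene, and a trended robust variance. The number of members past the threshold was 0 under all of them. The number of genes past it was 2 with the replicate block, 2 with median centring, 2 with the trended robust variance and 1 when probe sets of a gene were averaged, none of them a member. Whether the shared replicate numbers pair the samples is not given, and with the replicate block the adjusted p of Slc25a37 was 0.239. Deviations of same-numbered arrays from their group means correlated at 0.512 across genes and 0.50 across the members, a single value with 2 numbers. With 1 array left out, 28 to 33 members lay apart without overlap, because 1 value against 2 overlaps less often. The Slc25a37 difference ran from -2.70 to -0.92 and that of Slc25a28 from 0.13 to 0.25. Small differences changed sign with 1 array left out: Slc25a11 from -0.25 to 0.23, Slc25a13 from -0.36 to 0.40, Slc25a14 from -0.30 to 0.37, Slc25a20 from -0.68 to 0.080, Slc25a36 from -0.24 to 0.054, Slc25a38 from -0.22 to 0.49, Slc25a39 from -0.40 to 0.61 and Slc25a40 from -0.23 to 0.087. Median centring gave 0.023 for Slc25a11 and quantile normalization -0.0094 for Slc25a13. The mean of all probe sets gave 0.083 for Slc25a36, 0.017 for Slc25a46 and -0.14 for Slc25a53. The cause was not tested.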
